A study of Mus musculus with 12 samples.

Results

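The basement membrane genes described here are 9 of the 15720 gene identifiers in the deposited table, chosen by name: the type IV collagen chains Col4a1 and Col4a2, the laminin chains Lamb3, Lamb1 and Lamc1, the linkers Nid1 and Nid2, and the heparan sulfate proteoglycans Hspg2 and Agrn. All 9 were found, and all 9 were among the 11208 tested genes, whose mean level reached 0.5 FPKM (fragments per kilobase of transcript, scaled to library size, so a level per length). Lamb3 passed that filter only through its level under TGFb. The 9 genes were named with earlier results of these data known, so their counts are not those of an independent set. They were measured by RNA sequencing in EMS404, a mouse hepatic stellate cell line of C57Bl6 background, immortalised with SV40 and carrying human TLR4, features that every group shares. Cells received a Bmal1 siRNA or a scrambled siRNA, and 48 h later TGFb at 10 ng/mL or vehicle for another 24 h. The 4 groups of 3 libraries were Bmal1 siRNA with TGFb, scrambled siRNA with TGFb, Bmal1 siRNA with vehicle, and scrambled siRNA with vehicle. No source used here says whether the line is a single clone.

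Basement membranes are thin sheets of matrix in which a laminin network and a type IV collagen network are joined by nidogens and by proteoglycans such as perlecan and agrin. A laminin is a trimer of an alpha, a beta and a gamma chain, and type IV collagen is a triple helix of alpha chains that crosslinks into a mesh. In the liver, stellate cells lie in the space between hepatocytes and sinusoidal endothelium and are a source of such matrix, which accumulates along the sinusoids in fibrosis. TGFb drives stellate cells towards matrix-producing myofibroblasts, and Bmal1, encoded by Arntl, is a core transcription factor of the circadian clock.

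FPKM totals ran from 445472 to 483957 per library, and replicates of a group correlated across genes at a Pearson r of 0.9912 to 0.9983. Read depth was not given, so counting error could not be computed. Arntl stood at 5.05, 4.01 and 4.0 FPKM with Bmal1 siRNA and TGFb, against 10.5, 10.8 and 10.9 FPKM with scrambled siRNA and TGFb. Under vehicle it stood at 3.90, 3.87 and 3.59 FPKM with Bmal1 siRNA, against 5.43, 5.19 and 4.91 FPKM with scrambled siRNA. Of 9 stellate cell markers 7 were in the table and all 7 reached 0.5 FPKM, but Des, a defining one, did not exceed 1.23 FPKM. Lrat and Reln were not found among the identifiers used. Of 6 hepatocyte markers only 3 were in the table, and their sum did not exceed 0.54 FPKM in any library. All 5 mesothelial markers reached 0.5 FPKM, and their summed level was lower with TGFb, with values given beside Nid2. The libraries numbered 2 of both TGFb groups stood apart: that of the Bmal1 siRNA had the values closest to vehicle for Nid2 and Lamb3, and that of the scrambled siRNA had Isg15, an interferon-induced gene, at 99.1 FPKM beside 15.8 and 32.3 FPKM in its replicates.

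Lamb3 and Lamb1 are the laminin beta chains among the 9 genes and had unequal changes with TGFb, and Hspg2 was called in no comparison with all 12 libraries in the fit, so the sequences upstream of these 3 genes are shown. They are RefSeq promoter windows of the build GRCm38.p6 on the plus strand, cut back to the bases outside protein-coding exons. Capitals mark the GC box GGGCGG or its reverse complement.
Lamb3, chr1:193301744-193301992: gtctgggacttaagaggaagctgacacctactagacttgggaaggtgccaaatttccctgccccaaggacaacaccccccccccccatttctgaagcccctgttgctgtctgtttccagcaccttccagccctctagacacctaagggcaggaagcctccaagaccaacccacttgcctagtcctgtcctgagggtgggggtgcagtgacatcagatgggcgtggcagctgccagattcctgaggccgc
Lamb1, chr12:31265043-31265233: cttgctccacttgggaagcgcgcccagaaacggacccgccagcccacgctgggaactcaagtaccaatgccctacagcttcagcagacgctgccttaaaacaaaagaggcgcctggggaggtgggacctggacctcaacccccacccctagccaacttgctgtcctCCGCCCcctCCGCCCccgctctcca
Hspg2, chr4:137468553-137468768: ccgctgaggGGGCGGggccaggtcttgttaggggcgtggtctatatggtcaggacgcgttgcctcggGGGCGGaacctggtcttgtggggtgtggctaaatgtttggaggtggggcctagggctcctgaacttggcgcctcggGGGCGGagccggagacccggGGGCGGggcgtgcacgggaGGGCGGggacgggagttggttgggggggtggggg
The Lamb3 window lies upstream of a RefSeq start inside the longer gene model of the GENCODE annotation, which begins at position 193207699 of chromosome 1. It holds no GC box, whereas the Lamb1 window holds 2 and the Hspg2 window 5. A further Lamb3 window, chr1:193301993-193302292, also held 0. In the full 300-base windows of the other matched genes, Agrn held 12 and 2, Col4a2 3, Col4a1 1 and Nid1 1. A link between GC boxes and the response of a gene was not tested. A GC box on either strand was present in 35.66% of all 32851 RefSeq promoter windows of 300 bases. The E-box CACGTG, which the BMAL1 and CLOCK dimer is known to bind, occurred in 7.15% of the windows, the AP-1 site TGANTCA in 7.81% and the SMAD palindrome GTCTAGAC in 0.21%. None of these 3 motifs, searched on both strands, was found in the 300-base windows of the 7 matched genes among the 9, Lamc1 and Nid2 not being matched. That says only that these letters are not in these windows.

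With scrambled siRNA, TGFb raised 7 of the 9 genes and lowered 1, Nid2. Of all genes tested 16.4% were called higher and 29.1% lower at an adjusted p under 0.05 in limma. Since the 9 genes were chosen with earlier results known, such shares are background and no test of the set. Calls of all genes were higher in 36.1% of cases, and in 49.8%, 45.6% and 47.5% with median-of-ratios scaling, equal FPKM totals and quantile normalization, under each of which 7 of the 9 genes were again called higher and 1 lower. The median change over the 9 genes was 0.40 on the log2(FPKM + 1) scale, beside -0.05 over all genes. With Bmal1 siRNA, TGFb raised only Lamb3 and lowered only Nid2 of the 9, against a background of 8.90% higher and 10.1% lower, and the median change was 0.06, beside 0.00 over all genes. The difference between these responses was itself called for 6 genes, each time negative, that is with a lower response after Bmal1 siRNA, where 8.86% of all genes had a positive and 5.52% a negative called difference. Of all called differences 61.6% were positive, and 42.1%, 44.4% and 49.4% under the same 3 scalings, with 6 of the 9 genes called negative under each. The plot of levels by library shows each of the 9 genes.

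**Figure D1:**
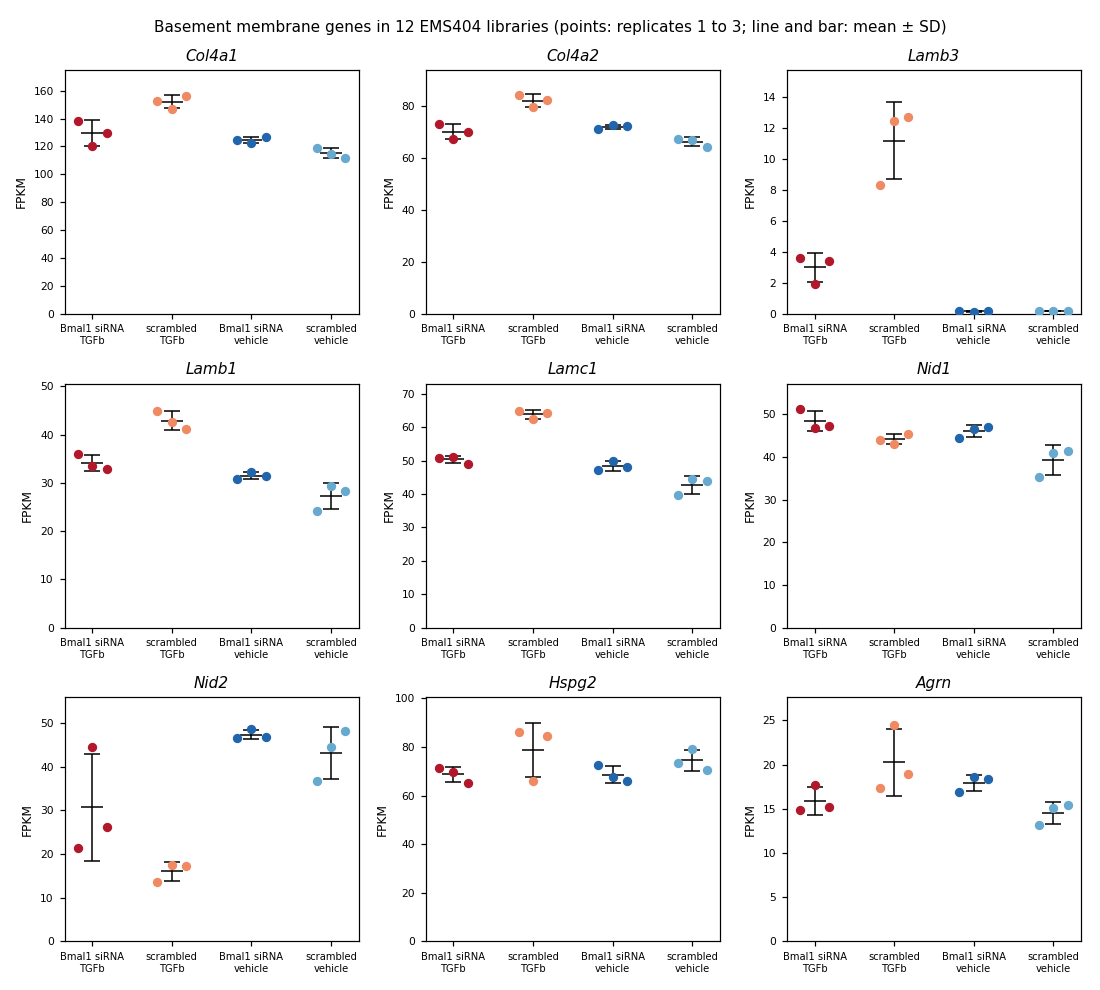
FPKM (y axis, linear from 0, own scale per gene) of the 9 basement membrane genes in the 12 libraries, by group (x axis). Points are replicates 1 to 3, and the line and bar are the mean ± SD of 3. In 5 genes, Col4a1, Col4a2, Lamb3, Lamb1 and Lamc1, the 3 libraries of scrambled siRNA with TGFb lie above all others, whereas for Nid2 they lie below all others.

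Col4a1 and Col4a2 encode the chains of the most widespread type IV collagen trimer. Col4a1 (ENSMUSG00000031502) stood at 138.6, 120.5 and 129.7 FPKM with Bmal1 siRNA and TGFb, at 152.9, 146.9 and 156.4 FPKM with scrambled siRNA and TGFb, at 124.4, 122.3 and 126.6 FPKM with Bmal1 siRNA and vehicle, and at 118.8, 114.7 and 111.9 FPKM with scrambled siRNA and vehicle. The scrambled TGFb libraries did not overlap with any others, and with Bmal1 siRNA the TGFb and vehicle libraries overlapped. Its mean over all 12 libraries ranked 551 of 11208, the highest of the 9 genes. With scrambled siRNA, TGFb raised Col4a1 by a log2 change of 0.40 (SE 0.051, adjusted p = 3.51e-05). After Bmal1 siRNA the change was 0.06 (95% interval -0.055 to 0.17, adjusted p = 0.488), and the difference between the responses was -0.34 (SE 0.073, adjusted p = 0.00863).

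Col4a2 (ENSMUSG00000031503) likewise had its highest level with scrambled siRNA and TGFb. It stood at 73.1, 67.4 and 69.8 FPKM with Bmal1 siRNA and TGFb, at 84.3, 79.7 and 82.5 FPKM with scrambled siRNA and TGFb, at 71.2, 72.6 and 72.2 FPKM with Bmal1 siRNA and vehicle, and at 67.4, 67.1 and 64.3 FPKM with scrambled siRNA and vehicle. The scrambled TGFb libraries were again above all others, and the 2 Bmal1 siRNA groups overlapped. The log2 change with TGFb was -0.04 after Bmal1 siRNA (95% interval -0.13 to 0.05, adjusted p = 0.568) and 0.31 with scrambled siRNA (SE 0.043, adjusted p = 6.9e-05). The difference of -0.34 (SE 0.060) was called, with an adjusted p of 0.00288.

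The genes of this collagen pair lie head to head on chromosome 8 of mm10, Col4a1 on the minus strand (11198423 to 11312826) and Col4a2 on the plus strand (11312805 to 11449287), with 21 bases between their annotated starts and 22 exon bases in common. Those bases are 0.29% of the Col4a1 and 0.33% of the Col4a2 exon bases. Use of strand is not stated, so whether reads from them could be assigned to either gene is unknown. Across the 12 libraries their centred log2 profiles lay a root mean square distance of 0.054 apart, the smallest among the pairs of the 9 genes after Lamb1 and Lamc1. Their own root mean square deviations were 0.15 and 0.12. Genes outside the 9 lay closer to each, Prr5 to Col4a1 (0.043) and Ppfibp1 to Col4a2 (0.048). The level ratio of Col4a1 to Col4a2 was 1.85 ± 0.054 with Bmal1 siRNA and TGFb, 1.85 ± 0.041 with scrambled siRNA and TGFb, 1.73 ± 0.038 with Bmal1 siRNA and vehicle and 1.74 ± 0.027 with scrambled siRNA and vehicle (SD, n = 3 each). Under TGFb every library had a higher ratio than every vehicle library of the same siRNA, a log2 difference of 0.10 (SE 0.031) after Bmal1 siRNA and 0.09 (SE 0.023) with scrambled siRNA. In the two-sided exact permutation test each had p = 0.1, the smallest that 3 against 3 allows.

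The other type IV collagen chains went the opposite way. Col4a5 and Col4a6, whose genes lie head to head on chromosome X with 1309 bases between their starts, encode chains of less widespread trimers. Col4a5 stood at 19.7, 34.2 and 22.2 FPKM with Bmal1 siRNA and TGFb and at 14.9, 17.1 and 17.9 FPKM with scrambled siRNA and TGFb, against 38.4, 43.6 and 42.8 FPKM with Bmal1 siRNA and vehicle and 31.2, 37.9 and 37.5 FPKM with scrambled siRNA and vehicle. Its TGFb libraries did not overlap with the vehicle libraries of the same siRNA. TGFb lowered Col4a5 by a log2 change of -0.73 after Bmal1 siRNA (adjusted p = 0.00489) and -1.05 with scrambled siRNA (adjusted p = 8.78e-05), and Col4a6 by -0.75 (adjusted p = 0.00598) and -1.13 (adjusted p = 8.4e-05). The difference between the responses was not called for Col4a5 (0.32, adjusted p = 0.343) or Col4a6 (0.38, adjusted p = 0.299). Under TGFb both were higher with Bmal1 siRNA, Col4a5 by 0.54 (adjusted p = 0.0208) and Col4a6 by 0.60 (adjusted p = 0.0186), and neither was called without replicate 1 of scrambled siRNA with TGFb (adjusted p = 0.0731 and 0.0635) or with only those 2 groups in the fit (adjusted p = 0.0808 and 0.0849). Without replicate 2 of Bmal1 siRNA with TGFb the differences were 0.32 for Col4a5 (adjusted p = 0.0364) and 0.34 for Col4a6 (adjusted p = 0.0205). Col4a5 was also not called with no filter on low values (adjusted p = 0.0501) or without replicate 2 of both TGFb groups (0.34, adjusted p = 0.0502). Col4a4 did not exceed 0.01 FPKM in any library, and Col4a3 was not found among the identifiers used.

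As a share of the summed FPKM of these 4 measured chains, a quantity chosen after the values were seen, Col4a1 and Col4a2 made up 83.4% ± 5.2 with Bmal1 siRNA and TGFb and 90.2% ± 0.89 with scrambled siRNA and TGFb. They made up 74.9% ± 0.99 with Bmal1 siRNA and vehicle and 76.3% ± 2.2 with scrambled siRNA and vehicle (SD, n = 3 each). The lowest TGFb library, replicate 2 of the Bmal1 siRNA at 77.5%, lay above all 3 vehicle libraries of that siRNA but below the highest scrambled vehicle library at 78.9%.

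**Figure D2:**
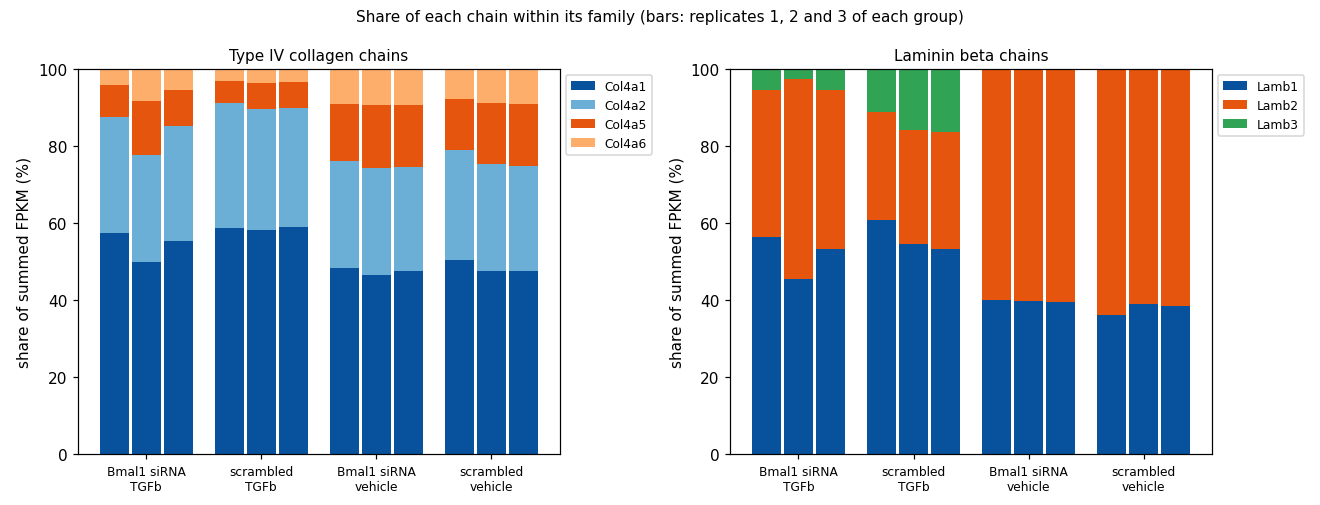
Shares (y axis, percent of summed FPKM) of 4 type IV collagen chains (left) and of 3 laminin beta chains (right), as a stacked bar for each of the 3 libraries of a group (x axis). On average Col4a1 and Col4a2 hold 90.2% of the type IV collagen FPKM with scrambled siRNA and TGFb, and Lamb3 holds 14.6% of the laminin beta FPKM there, against 0.241% with scrambled siRNA and vehicle.

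Lamb3, the beta chain of the epithelial laminin that also holds Lama3, had the largest change of the 9 genes. Lamb3 (ENSMUSG00000026639, chromosome 1) stood at 3.62, 1.93 and 3.42 FPKM with Bmal1 siRNA and TGFb, at 8.31, 12.5 and 12.7 FPKM with scrambled siRNA and TGFb, at 0.16, 0.14 and 0.17 FPKM with Bmal1 siRNA and vehicle, and at 0.17, 0.16 and 0.19 FPKM with scrambled siRNA and vehicle. All TGFb libraries lay above all vehicle libraries, the TGFb groups were apart from each other, and the vehicle groups overlapped. Mean FPKM was 19.1-fold higher with TGFb than with vehicle after Bmal1 siRNA and 64.5-fold higher with scrambled siRNA, but the vehicle levels are rounded to 2 decimals and their counting error is unknown. On the log2(FPKM + 1) scale the change was 1.76 (SE 0.16, adjusted p = 4.04e-05) after Bmal1 siRNA and 3.35 (SE 0.16, adjusted p = 1.31e-08) with scrambled siRNA. The difference between the responses was -1.60 (SE 0.23, adjusted p = 0.000798), and under TGFb Lamb3 was lower with Bmal1 siRNA by a log2 change of -1.62 (adjusted p = 2.88e-05). Lama3, the alpha chain of that laminin, did not exceed 0.04 FPKM in any library.

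Lamb1 and Lamc1 encode the beta and gamma chains found in most laminins. Lamb1 (ENSMUSG00000002900) stood at 35.9, 33.5 and 32.8 FPKM with Bmal1 siRNA and TGFb, at 45.0, 42.6 and 41.2 FPKM with scrambled siRNA and TGFb, at 30.8, 32.2 and 31.4 FPKM with Bmal1 siRNA and vehicle, and at 24.3, 29.4 and 28.3 FPKM with scrambled siRNA and vehicle. The 4 groups did not overlap. The log2 change with TGFb was 0.11 after Bmal1 siRNA (95% interval -0.03 to 0.25, adjusted p = 0.272) and 0.64 with scrambled siRNA (SE 0.066, adjusted p = 5.2e-06), a called difference of -0.53 (SE 0.093, adjusted p = 0.00305).

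Lamc1 (ENSMUSG00000026478) stood at 50.9, 51.2 and 49.0 FPKM with Bmal1 siRNA and TGFb, at 64.9, 62.4 and 64.4 FPKM with scrambled siRNA and TGFb, at 47.1, 49.9 and 48.2 FPKM with Bmal1 siRNA and vehicle, and at 39.6, 44.6 and 43.8 FPKM with scrambled siRNA and vehicle. The scrambled TGFb libraries were above all others and the scrambled vehicle libraries below all others, with the 2 Bmal1 siRNA groups overlapping in between. The log2 change with TGFb was 0.06 after Bmal1 siRNA (95% interval -0.05 to 0.16, adjusted p = 0.455) and 0.57 with scrambled siRNA (SE 0.049, adjusted p = 1.02e-06), a called difference of -0.52 (SE 0.069, adjusted p = 0.000437).

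The proportion of these 2 chains moved little between groups. The level ratio of Lamb1 to Lamc1 was 0.676 ± 0.027 with Bmal1 siRNA and TGFb, 0.672 ± 0.028 with scrambled siRNA and TGFb, 0.650 ± 0.0044 with Bmal1 siRNA and vehicle and 0.640 ± 0.025 with scrambled siRNA and vehicle (SD, n = 3 each). Over the 4 pairwise comparisons its log2 differences ran from 0.01 to 0.07, with two-sided exact permutation p-values from 0.2 to 0.9, where 0.1 is the smallest possible. Their centred profiles were 0.050 apart over the 12 libraries, the closest pair of the 9 genes. Genes outside the 9 lay closer to each, Abhd2 to Lamb1 (0.045) and Itpripl2 to Lamc1 (0.048).

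The other measured beta chain, Lamb2, and the alpha chain Lama5 fell. Lamb2, the alternative to Lamb1 in many laminins, was lowered by TGFb by a log2 change of -0.71 after Bmal1 siRNA (adjusted p = 0.00166) and -0.96 with scrambled siRNA (adjusted p = 3.16e-05). Lama5, the only alpha chain above 0.22 FPKM in any library, was lowered by -0.48 (adjusted p = 0.00461) and -0.43 (adjusted p = 0.00322). Lamb2 held 43.8% ± 7.3 of the summed beta chain FPKM with Bmal1 siRNA and TGFb, 29.3% ± 1.1 with scrambled siRNA and TGFb, 60.1% ± 0.24 with Bmal1 siRNA and vehicle and 61.9% ± 1.6 with scrambled siRNA and vehicle (SD, n = 3 each). Lamb3 held 4.61% ± 1.7, 14.6% ± 2.9, 0.198% ± 0.022 and 0.241% ± 0.025 in the same order of groups, and Lamb1 held the rest.

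Nid1 and Nid2 encode nidogens, which bridge the laminin and type IV collagen networks, and TGFb changed them in opposite directions with scrambled siRNA. Nid2 (ENSMUSG00000021806, chromosome 14) stood at 21.3, 44.6 and 26.3 FPKM with Bmal1 siRNA and TGFb, at 13.5, 17.5 and 17.2 FPKM with scrambled siRNA and TGFb, at 46.6, 48.6 and 46.9 FPKM with Bmal1 siRNA and vehicle, and at 36.6, 44.5 and 48.2 FPKM with scrambled siRNA and vehicle. The scrambled TGFb libraries lay below all others, and replicate 2 of Bmal1 siRNA with TGFb lay close to the vehicle libraries. TGFb lowered Nid2 by a log2 change of -0.68 after Bmal1 siRNA (SE 0.20, adjusted p = 0.0287) and of -1.37 with scrambled siRNA (SE 0.20, adjusted p = 8.38e-05). The difference of 0.69 between the responses was not called (95% interval 0.09 to 1.29, adjusted p = 0.116). Under TGFb Nid2 was higher with Bmal1 siRNA by a log2 change of 0.83 (SE 0.20, adjusted p = 0.00899), a call that ended with only those 2 groups in the fit (adjusted p = 0.0544).

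These Nid2 values depended on single libraries. Without replicate 2 of Bmal1 siRNA with TGFb, the response after Bmal1 siRNA was -0.97 (adjusted p = 6.17e-05), and the difference under TGFb was 0.54 (adjusted p = 0.0092). Without replicate 1 of that group the response after Bmal1 siRNA was -0.46 (adjusted p = 0.12), while the difference between the responses was 0.91 and called (adjusted p = 0.0201). The response after Bmal1 siRNA was also not called without replicate 3 of that group or without any single replicate of Bmal1 siRNA with vehicle (adjusted p 0.0626 to 0.115). Nid2 shares 437 exon bases, 8.45% of its own, with Rtraf on the opposite strand. Use of strand is not stated, so whether reads from those bases could be told apart is unknown.

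The summed FPKM of the 5 mesothelial markers was lower with TGFb, as were Nid2, Col4a5, Col4a6 and Lamb2. It ran from 86.2 to 166.3 FPKM with Bmal1 siRNA and TGFb and from 84.7 to 117.2 FPKM with scrambled siRNA and TGFb, against 298.9 to 327.6 FPKM with Bmal1 siRNA and vehicle and 258.0 to 309.6 FPKM with scrambled siRNA and vehicle. Upk3b made up most of the sum under vehicle, with a mean of 50.5 FPKM with Bmal1 siRNA and TGFb and 39.9 FPKM with scrambled siRNA and TGFb, against 187.0 FPKM with Bmal1 siRNA and vehicle and 176.6 FPKM with scrambled siRNA and vehicle. Msln did not follow it, with means of 13.3 FPKM with Bmal1 siRNA and TGFb and 16.7 FPKM with scrambled siRNA and TGFb, against 14.9 FPKM with Bmal1 siRNA and vehicle and 10.9 FPKM with scrambled siRNA and vehicle. Of all genes 29.1% were called lower with TGFb and scrambled siRNA, and 10.1% with TGFb and Bmal1 siRNA. The stellate cell marker Pdgfra was lower with TGFb too. Its means were 22.0 FPKM with Bmal1 siRNA and 11.0 FPKM with scrambled siRNA under TGFb, against 43.1 and 44.4 FPKM under vehicle. Pdgfrb, another stellate cell marker, was higher, with means of 16.0 and 29.6 FPKM against 11.1 and 12.9 FPKM. None of the 5 mesothelial markers was at 0, and the lowest, Gpm6a, did not fall below 9.05 FPKM. The part of these markers in the results was not tested, and in bulk RNA fewer cells of a type and less RNA per cell cannot be told apart.

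Nid1 (ENSMUSG00000005397, chromosome 13) varied less. It stood at 51.2, 46.9 and 47.2 FPKM with Bmal1 siRNA and TGFb, at 44.1, 43.1 and 45.4 FPKM with scrambled siRNA and TGFb, at 44.4, 46.6 and 47.0 FPKM with Bmal1 siRNA and vehicle, and at 35.2, 41.0 and 41.5 FPKM with scrambled siRNA and vehicle. The scrambled vehicle libraries lay below all others, and the order of the other groups was not clear, since neighbours overlapped. The log2 change with TGFb was 0.07 after Bmal1 siRNA (adjusted p = 0.449) and 0.17 with scrambled siRNA (SE 0.061, adjusted p = 0.0361). The call with scrambled siRNA ended without replicate 1 of scrambled siRNA with vehicle (0.10, adjusted p = 0.14), without replicate 1 or 3 of scrambled siRNA with TGFb (adjusted p = 0.0724 and 0.111) and with only the 2 groups in the fit (adjusted p = 0.0592). The level ratio of Nid1 to Nid2 was 1.75 ± 0.68 with Bmal1 siRNA and TGFb and 2.79 ± 0.42 with scrambled siRNA and TGFb, against 0.971 ± 0.028 with Bmal1 siRNA and vehicle and 0.915 ± 0.051 with scrambled siRNA and vehicle (SD, n = 3 each). Its TGFb and vehicle libraries did not overlap with either siRNA, and each comparison had p = 0.1 in the two-sided exact permutation test, the smallest possible.

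Hspg2 and Agrn encode perlecan and agrin, large heparan sulfate proteoglycans that bind laminin or the linker proteins. Hspg2 (ENSMUSG00000028763, chromosome 4) stood at 71.3, 69.7 and 65.2 FPKM with Bmal1 siRNA and TGFb, at 86.1, 66.0 and 84.4 FPKM with scrambled siRNA and TGFb, at 72.4, 67.5 and 66.0 FPKM with Bmal1 siRNA and vehicle, and at 73.5, 79.1 and 70.7 FPKM with scrambled siRNA and vehicle. All neighbouring groups overlapped. The log2 change with TGFb was 0.00 after Bmal1 siRNA (95% interval -0.18 to 0.19, adjusted p = 0.988) and 0.07 with scrambled siRNA (95% interval -0.11 to 0.26, adjusted p = 0.512). Replicate 2 of scrambled siRNA with TGFb, the library with 99.1 FPKM of Isg15, was the lowest of its group. Without it, the change with scrambled siRNA was 0.19 (adjusted p = 0.0244), and Hspg2 was lower with Bmal1 siRNA under TGFb by -0.31 (adjusted p = 0.00582).

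Agrn (ENSMUSG00000041936, chromosome 4) stood at 14.8, 17.8 and 15.2 FPKM with Bmal1 siRNA and TGFb, at 17.3, 24.5 and 18.9 FPKM with scrambled siRNA and TGFb, at 16.9, 18.6 and 18.4 FPKM with Bmal1 siRNA and vehicle, and at 13.1, 15.1 and 15.5 FPKM with scrambled siRNA and vehicle. With scrambled siRNA the TGFb libraries lay above the vehicle libraries, and under TGFb the groups of the 2 siRNAs overlapped. The log2 change with TGFb was -0.17 after Bmal1 siRNA (95% interval -0.40 to 0.07, adjusted p = 0.317) and 0.44 with scrambled siRNA (SE 0.11, adjusted p = 0.00488). The difference of -0.60 (SE 0.15) was called, with an adjusted p of 0.0198. It was not called without replicate 2 of Bmal1 siRNA with vehicle (-0.58, adjusted p = 0.0532) or replicate 1 of scrambled siRNA with vehicle (-0.54, adjusted p = 0.0526).

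The highest Agrn value, 24.5 FPKM, was that of the same Isg15-rich library in which Hspg2 was lowest of its group. The summed FPKM of 6 interferon response genes ran from 26.5 to 29.7 FPKM with Bmal1 siRNA and TGFb, from 49.7 to 280.9 FPKM with scrambled siRNA and TGFb, from 27.7 to 50.6 FPKM with Bmal1 siRNA and vehicle, and from 21.0 to 28.5 FPKM with scrambled siRNA and vehicle. All 6 reached 0.5 FPKM, and their part in the Agrn and Hspg2 values was not tested. Without that library Agrn rose by 0.30 with scrambled siRNA and TGFb (adjusted p = 0.0162), and its difference under TGFb was -0.18 and no longer called (adjusted p = 0.177).

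**Figure D3:**
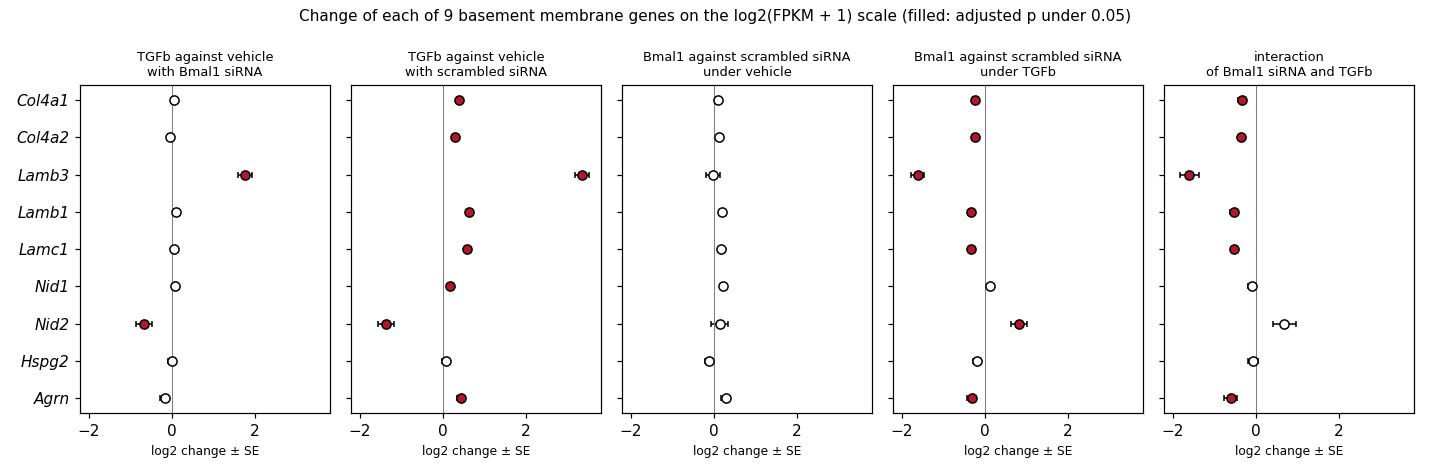
Log2 changes of the 9 genes on the log2(FPKM + 1) scale (x axis, bars ± SE) in the 4 pairwise comparisons and in the difference between the responses to TGFb (interaction), with filled points where the adjusted p was under 0.05. With scrambled siRNA 8 of the 9 genes are called, and with Bmal1 siRNA Lamb3 and Nid2 are.

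The siRNA itself was then compared within each treatment. Under TGFb, 6 of the 9 genes were lower with Bmal1 siRNA and 1, Nid2, was higher, where 7.16% of all genes were called lower and 16.0% higher. Of all calls 69.1% were higher, and 44.9%, 58.9% and 53.3% with median-of-ratios scaling, equal FPKM totals and quantile normalization, while the 9 genes gave 6 lower and 1 higher each time. Lamc1 was lower by a log2 change of -0.34 (SE 0.049, adjusted p = 0.000418), Lamb1 by -0.32 (SE 0.066, adjusted p = 0.0039), Col4a1 by -0.23 (SE 0.051, adjusted p = 0.00672) and Col4a2 by -0.23 (SE 0.043, adjusted p = 0.0025). In mean FPKM these 4 genes stood at 50.4, 34.1, 129.6 and 70.1 with Bmal1 siRNA and TGFb, against 63.9, 42.9, 152.1 and 82.2 with scrambled siRNA and TGFb. The call of Agrn (-0.32, SE 0.11, adjusted p = 0.0492) was narrow and was lost under 14 of 24 alternative settings (adjusted p up to 0.177), 9 of them fits that left out a single library. Nid1 (0.13, adjusted p = 0.144) and Hspg2 (-0.19, adjusted p = 0.132) were not called.

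Under vehicle none of the 9 genes was called by limma, where 0.294% of all genes were called higher and 0.366% lower. At an unadjusted p under 0.05, which 11.0% of all genes passed with a higher and 10.7% with a lower level, 5 of the 9 genes had a positive change with Bmal1 siRNA and none a negative one: Nid1 with a log2 change of 0.23 (adjusted p = 0.0859), Lamc1 with 0.18 (adjusted p = 0.087), Lamb1 with 0.20 (adjusted p = 0.12), Col4a2 with 0.12 (adjusted p = 0.147) and Agrn with 0.29 (adjusted p = 0.161). For these 5 and for Col4a1 every Bmal1 siRNA library lay above every scrambled one under vehicle, as for 16.7% of all genes, while 15.1% of all genes had every library below. Of the 74 calls among all genes 44.6% were higher, and 61.2% with equal FPKM totals. The comparisons share groups with one another: both the response to TGFb with scrambled siRNA and the siRNA effect under vehicle use the scrambled vehicle libraries, so their values for a gene are not independent.

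The genes whose profiles over the 12 libraries lay closest to each of the 9 were sought outside the 9, with predicted gene models left out. Closeness was the root mean square distance between centred log2(FPKM + 1) values. Lamb1 and Lamc1 had Abhd2 and Itpripl2 in common among their 3 nearest genes, with distances from 0.045 to 0.052. Nearest to Col4a1 was Prr5 (0.043), to Col4a2 Ppfibp1 (0.048), to Nid1 Zfp317 (0.040) and to Hspg2 Ubr4 (0.061). Nearest to Nid2 was Il33 (0.078), to Agrn Herc6 (0.085) and to Lamb3 Nt5e (0.17), against root mean square deviations of 0.64, 0.21 and 1.41 of these 3 genes' own profiles.

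Other genes of the basement membrane were counted from 6 lists of 67 genes, of which 44 were tested. With scrambled siRNA TGFb raised 20 and lowered 16 of them, where 16.4% of all genes were called higher and 29.1% lower. With Bmal1 siRNA it raised 14 and lowered 17, where 8.90% of all genes were called higher and 10.1% lower. The difference between the responses was positive for 4 and negative for 15, beside 8.86% and 5.52% of all genes. Under TGFb 7 were higher and 14 lower with Bmal1 siRNA, where 16.0% of all genes were called higher and 7.16% lower. Under vehicle none was called by limma, where 0.294% of all genes were called higher and 0.366% lower. The median change over the 44 genes was 0.15 with TGFb and scrambled siRNA, -0.12 with TGFb and Bmal1 siRNA, and -0.06 for the siRNA under TGFb, beside -0.05, 0.00 and 0.06 over all genes. Pooled, the 44 genes were called in both directions in each comparison with calls, whereas some single lists were called in a single direction only.

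Of 11 tested genes for collagen folding, export and crosslinking, TGFb raised 6 and lowered none with scrambled siRNA (16.4% and 29.1% of all genes). With Bmal1 siRNA it raised 3 and lowered 1 (8.90% and 10.1% of all genes). A called difference was negative for 4 and positive for none (5.52% and 8.86% of all genes). Plod2, a lysyl hydroxylase of collagens, averaged 27.2 ± 0.59 FPKM with Bmal1 siRNA and TGFb, 41.1 ± 3.0 FPKM with scrambled siRNA and TGFb, 29.2 ± 4.4 FPKM with Bmal1 siRNA and vehicle and 21.6 ± 0.96 FPKM with scrambled siRNA and vehicle (SD, n = 3 each). The difference between its responses was -0.99 (adjusted p = 0.000314). Loxl2, a lysyl oxidase that crosslinks type IV collagen, had a difference of -0.74 (adjusted p = 0.00191). Its change with Bmal1 siRNA was 0.41 under vehicle (adjusted p = 0.0557) and -0.34 under TGFb (adjusted p = 0.0145). Pxdn, the peroxidase that forms the sulfilimine bond of type IV collagen, had a difference of -0.43 (adjusted p = 0.00527). Its change with Bmal1 siRNA was 0.22 under vehicle (adjusted p = 0.0841) and -0.21 under TGFb (adjusted p = 0.0227).

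Of 10 tested receptors for laminin and type IV collagen, TGFb raised 3 and lowered 7 with scrambled siRNA (16.4% and 29.1% of all genes). With Bmal1 siRNA it raised 2 and lowered 6 (8.90% and 10.1% of all genes). The difference between the responses was positive for 1 and negative for 3 (8.86% and 5.52% of all genes). Sdc1, a heparan sulfate proteoglycan of the cell surface, rose by a log2 change of 0.60 after Bmal1 siRNA (adjusted p = 0.000239) and 1.08 with scrambled siRNA (adjusted p = 2.19e-07), a called difference of -0.48 (adjusted p = 0.0118). Itga6 and Itgb1, further integrin subunits, had differences of -0.57 (adjusted p = 0.0175) and -0.27 (adjusted p = 0.0115). Under TGFb neither was called between the siRNAs (-0.18, adjusted p = 0.2, and -0.09, adjusted p = 0.16). Under vehicle their changes with Bmal1 siRNA were 0.39 (adjusted p = 0.0783) and 0.18 (adjusted p = 0.0667), also not called. Itga6 was low, from 0.93 to 2.07 FPKM over the libraries. Itga3, an alpha subunit of a laminin-binding integrin, fell by a log2 change of -0.77 with scrambled siRNA (adjusted p = 1.33e-07) and had a positive difference of 0.41 between its responses (adjusted p = 0.00331).

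All 12 tested proteases and inhibitors of the basement membrane were called with scrambled siRNA and TGFb, 9 higher and 3 lower (16.4% and 29.1% of all genes). With Bmal1 siRNA and TGFb 10 were called, 7 higher and 3 lower (8.90% and 10.1% of all genes). The difference between the responses was called for 9, 3 of them positive and 6 negative (8.86% and 5.52% of all genes). Mmp2, a gelatinase that cleaves type IV collagen, averaged 23.6 ± 3.5 FPKM with Bmal1 siRNA and TGFb, 55.4 ± 6.4 FPKM with scrambled siRNA and TGFb, 8.56 ± 0.17 FPKM with Bmal1 siRNA and vehicle and 7.10 ± 0.65 FPKM with scrambled siRNA and vehicle (SD, n = 3 each). The difference between its responses was -1.45 (adjusted p = 7.44e-05). Mmp9, the other gelatinase, had a difference of -1.15 (adjusted p = 0.000375), and Mmp14, a membrane-bound protease that activates Mmp2, one of -0.62 (adjusted p = 0.000148). Timp3, a matrix-bound inhibitor of such proteases, had one of -0.88 (adjusted p = 0.000449), but shares 1733 exon bases with Syn3 on the opposite strand. The positive differences included those of Mmp3, a stromelysin, at 0.55 (adjusted p = 0.00945) and of Adamts1, a metalloprotease, at 0.46 (adjusted p = 0.0337). The Adamts1 call was lost under 10 of 23 alternative settings (adjusted p up to 0.0823). Mmp3 was low, with means of 0.24 FPKM with Bmal1 siRNA and TGFb and 0.02 FPKM with scrambled siRNA and TGFb. Under vehicle its means were 1.87 FPKM with Bmal1 siRNA and 2.44 FPKM with scrambled siRNA. Its difference ran from 0.18 to 1.84 over the alternative settings.

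**Figure D4:**
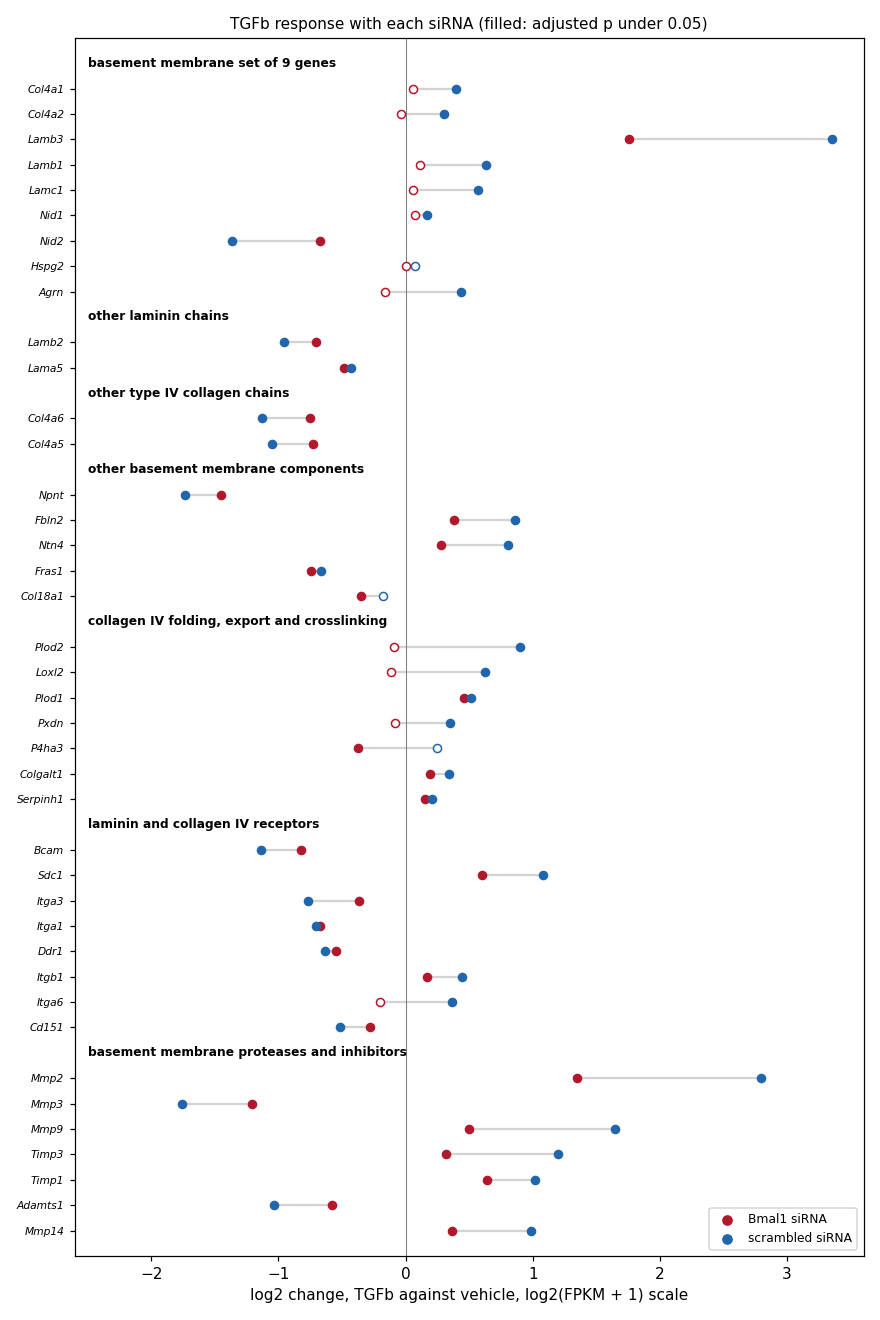
Log2 change with TGFb (x axis, log2(FPKM + 1) scale) with Bmal1 siRNA and with scrambled siRNA for the 9 genes and for the other named basement membrane genes, filled where the adjusted p was under 0.05. Lamb3 stands at 1.76 with Bmal1 siRNA and 3.35 with scrambled siRNA, and Col4a5 at -0.73 and -1.05.

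Among further components, Fbln2, which binds laminin and nidogen, rose with TGFb by 0.38 after Bmal1 siRNA (adjusted p = 0.000585) and 0.86 with scrambled siRNA (adjusted p = 1.09e-07), a called difference of -0.48 (adjusted p = 0.00186). Ntn4, a netrin that binds laminin, rose by 0.80 with scrambled siRNA (adjusted p = 4.64e-06) and had a difference of -0.52 (adjusted p = 0.0106). Npnt, a ligand of integrin, had a log2 change of -1.46 after Bmal1 siRNA (adjusted p = 0.000143) and -1.74 with scrambled siRNA (adjusted p = 3.35e-06).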

How the data were processed

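RNA of 12 libraries was analysed, 3 per group; sample titles gave the group and the replicate number. The authors deposited FPKM values with 2 decimals, per the file headers. HISAT2 2.0.4, Bowtie2 2.2.5, RSEM, DESeq2 and the build mm10 appear in the submitters' processing notes, with no role stated. No source used here gives the annotation version, the use of strand or the number of reads, so depth is unknown. Per the labels' protocols 2 RNA kits were in use, and their assignment to libraries is not known.

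Of 16290 table lines, 555 without an identifier (1.304% to 1.464% of a library's FPKM) and 15 repeats were left out, which gave 15720 identifiers. Of these 15694 had a symbol in GENCODE M21. The log2(FPKM + 1) values of the 11208 genes whose mean level reached 0.5 FPKM entered 1 linear model of the 4 groups, fitted with limma (version 3.58.1, R version 4.3.3) and its trend option. Residual degrees of freedom were 8 and prior degrees of freedom 4.99. Tests were two-sided, and calls were made where the p adjusted over all these genes (Benjamini-Hochberg) was under 0.05. Changes on this scale understate those of low genes. Ratios of levels were tested by exact permutation. The fits were checked on simulated data.

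Besides the 9 genes and Arntl, up to 4 called genes per list and comparison with the largest change could be named, and for each of the 9 the 3 nearest profiles. The 9 genes, the 6 lists of other basement membrane genes and the marker lists (stellate, hepatocyte, cholangiocyte and epithelial, endothelial, leukocyte, mesothelial, interferon response) were chosen with earlier results of these data known. A gene of these lists is not reported here. Summed marker levels in any library did not exceed 9.78 FPKM for the cholangiocyte and epithelial list (5 of 6 in the table, 3 reaching 0.5 FPKM). They did not exceed 3.37 FPKM for the endothelial list (6 of 6 in the table, 1 reaching it) and 5.00 FPKM for the leukocyte list (3 of 6 in the table, 2 reaching it). Triplicates are described as biological in the series text, yet separate cultures are named in no label, so the p-values reflect a spread that may be partly technical. Alternatives were other pseudocounts, filters, scalings, variance models, a replicate block, only the groups compared, and each library left out.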

Additional observations from a re-analysis of the deposited data

Results flagged for a closer look

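For 6 of the 9 genes the response to TGFb differed between the siRNAs in limma's test of the difference itself, given here as the log2 response with Bmal1 siRNA minus that with scrambled siRNA. The difference was -1.60 for Lamb3, -0.60 for Agrn, -0.53 for Lamb1, -0.52 for Lamc1, -0.34 for Col4a1 and -0.34 for Col4a2. Each was negative, where 8.86% of all genes had a positive and 5.52% a negative called difference. The adjusted p-values ran from 0.000437 for Lamc1 to 0.0198 for Agrn. The Agrn call was lost under 2 of 23 alternative settings (adjusted p up to 0.0532).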

How the results depend on the processing

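Of 45 results for the 9 genes (5 comparisons each), 35 stayed on their side of the threshold under up to 24 settings, 18 of the 23 called results did so, and none changed direction while called. With Bmal1 siRNA and TGFb, the count of called genes among the 9 was 1 in place of 2 with no filter, with limma robust and with only the groups compared, 1 to 2 with each library left out, and 3 without both second TGFb libraries (replicate 2 of each TGFb group), where Agrn was called lower (-0.24, adjusted p = 0.0272). For the siRNA under vehicle it was 1 in place of 0 without both second TGFb libraries. Counts over all genes called moved more. With Bmal1 siRNA and TGFb they ran from 1166 (without replicate 3) to 3260 (without replicate 2 of that group) with each library left out and reached 3240 without both second TGFb libraries, in place of 2128. For the siRNA under vehicle they were 7 with no filter, 2 to 473 with each library left out, 407 without both second TGFb libraries and 229 with only the groups compared, in place of 74. For the siRNA under TGFb they were 1492 without both second TGFb libraries and 1542 with only the groups compared, in place of 2596. For the difference between responses they ran from 991 to 1871 with each library left out, in place of 1612, the lowest without replicate 2 of Bmal1 siRNA with vehicle. Of the other basement membrane genes, under vehicle, 1 was called with a pseudocount of 0.1, 2 with equal totals, 1 with quantile normalization, 0 to 7 with each library left out, 7 without both second TGFb libraries and 6 with only the groups compared, in place of 0. The log2 difference of the Lamb3 to Lamb1 ratio with TGFb, in FPKM + 0.1, was 3.43 in place of 4.09 after Bmal1 siRNA and 4.69 in place of 5.33 with scrambled siRNA, since the added 0.1 is near the vehicle level of Lamb3. The cause of the other changes was not tested.

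Libraries with the same replicate number did not deviate together in every pair (correlations of deviations from -0.149 to 0.475). Between the siRNAs under TGFb, the libraries numbered 1 correlated at 0.475 and those numbered 2 at 0.299, but those numbered 3 at -0.051. With 3 libraries per group these correlations cannot settle whether the numbers pair the libraries, and the main fit used no pairing. With the replicate number as a replicate block, under vehicle 1 of the 9 genes, 540 of all genes and 7 of the other basement membrane genes were called, and the difference of Nid2 was called (adjusted p = 0.0423). In both comparisons of TGFb with vehicle 1 of 3 libraries correlated best with its own number, and in both comparisons of the siRNAs 2 of 3 did. Depth is unknown, so the counting error of low values, such as Lamb3 under vehicle, could not be given.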
